A study of Mus musculus with 6 samples.

Results

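Messenger RNA of the cytokine receptor subunits that work with the common gamma chain or with gp130 was compared between CTLA-4 KO and wild type T cells. The genes were Il7r, Il2ra, Il2rb, Il2rg, Il4ra, Il21r, Il6ra and Il6st, and every probe set that the array annotation gives to exactly 1 of them was taken. This gave 16 probe sets for 7 of the 8 genes, out of 45101 probe sets and 18194 named genes on the array. No probe set was listed for Il2rg, the common gamma chain itself, in the annotation used here, so that gene was not analysed. The cells were 5C.C7 T cells, whose transgenic antigen receptor sees a moth cytochrome c (MCC) peptide. Donor mice of both groups were RAG2-/- and carried the CD45.1 marker, and those of the CTLA-4 KO group were in addition CTLA-4-/-. Donor cells were moved into B10.A mice, the hosts were immunized with MCC peptide and LPS, and RNA was taken from the sorted cells on day 4. Each genotype had 3 arrays, called biological replicates 1 to 3, and the labels do not say whether an array stands for 1 host or for pooled hosts.

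The common gamma chain is the shared signalling subunit of the receptors for interleukins 2, 4, 7, 9, 15 and 21, and each receptor adds a subunit of its own that gives it its ligand. The gp130 chain, encoded by Il6st, plays the same part for interleukin-6 and its relatives, after the ligand has bound Il6ra. Both chains pass the signal through JAK kinases to STAT transcription factors, and SOCS proteins shut it off again. In T cells, the interleukin-7 receptor keeps resting cells alive and is lowered on activation, whereas the interleukin-2 receptor alpha chain is raised on activation. CTLA-4 is an inhibitory receptor that competes with CD28 for CD80 and CD86.

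The promoters of Il7r and Il6st are given first, because these were the receptor genes with a probe set past the threshold in at least 1 of the fits below. Sequences are those of RefSeq on GRCm38.p6, from 250 bases before to 50 bases after the gene start, written 5′ to 3′ on the strand of the gene. Il7r lies on the minus strand at chr15:9529827-9530126 and Il6st on the plus strand at chr13:112463820-112464119. Capitals mark matches to a STAT motif (TTCNNNGAA), an ETS motif (AGGAAG) or a FOXO motif (GTAAACA), each searched on both strands.
Il7r: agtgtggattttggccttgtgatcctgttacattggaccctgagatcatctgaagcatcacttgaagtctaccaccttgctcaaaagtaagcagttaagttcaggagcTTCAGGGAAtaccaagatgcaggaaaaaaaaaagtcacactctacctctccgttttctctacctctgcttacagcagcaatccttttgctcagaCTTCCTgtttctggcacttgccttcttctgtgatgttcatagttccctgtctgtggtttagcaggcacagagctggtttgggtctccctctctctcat
Il6st: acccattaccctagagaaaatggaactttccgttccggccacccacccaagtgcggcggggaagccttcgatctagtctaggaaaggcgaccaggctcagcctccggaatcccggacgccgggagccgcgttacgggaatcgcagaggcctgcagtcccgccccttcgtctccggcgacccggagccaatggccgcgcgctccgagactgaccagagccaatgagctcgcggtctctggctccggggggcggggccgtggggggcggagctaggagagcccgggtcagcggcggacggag
The Il7r window held 1 STAT match that began 142 bases before the start and 1 ETS match that began 48 bases before it, with no overlap between them. The Il6st window held no match to any of the 3 motifs, and its G and C content was 68.3%, against 45.7% in Il7r. Among the 7 receptor genes with a RefSeq window, which leaves out Il2rb and includes Il2rg, Il7r was the 1 with a STAT match, 5 had an ETS match (Il7r, Il2ra, Il2rg, Il4ra and Il6ra) and Il21r had the FOXO match. Of all 32851 windows in the table, 8.3% held the STAT motif, 35.4% the ETS motif and 3.65% the FOXO motif.

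Values are linear intensities. Differences between the genotypes are on log2(intensity + 16), with wild type subtracted from CTLA-4 KO, and were tested with limma over 27022 probe sets above a dimness floor of 35.4. A difference is called changed at a Benjamini-Hochberg adjusted p under 0.05. The targeted gene, Ctla4, had 812, 791 and 784 in CTLA-4 KO arrays 1, 2 and 3, against 5332, 4787 and 4587 in the wild type arrays (limma adjusted p = 1.45e-06). A two-sided exact permutation test of this gene alone had p = 0.1, which is as low as 3 against 3 arrays can go. Replicate numbers were shared by the genotypes and paired the arrays, so the fit with replicate number as a block is given where it changes a call. T cell markers were bright on all arrays: the 6 measured (Cd3d, Cd3e, Cd3g, Cd4, Cd5 and Cd28) summed to 42452 to 43855 in CTLA-4 KO and 45281 to 50218 in wild type. None was past the threshold without the block. With it 2 of the 6 were lower in CTLA-4 KO, where 3.44% of all tested genes were. These were Cd3g (−0.35, limma adjusted p = 0.122, and 0.029 with the block) and Cd28 (−0.34, 0.0731, and 0.0299 with the block), and their part in the blocked results was not tested. The other Cd28 probe set had −0.12, with overlapping groups (limma adjusted p = 0.554, and 0.43 with the block). The summed signal of 4 B cell markers was 111 to 208 in CTLA-4 KO and 191 to 302 in wild type, that of 5 myeloid markers 193 to 343 and 299 to 307, and that of 3 dendritic cell markers 142 to 195 and 116 to 271. The 2 CD8 T cell markers summed to 315 to 513 in CTLA-4 KO and 262 to 422 in wild type. None of these B cell, myeloid, dendritic cell and CD8 T cell markers was past the threshold in either fit. NK cell and plasma cell markers summed to at most 124 on any array. The ratio of 5' to 3' Actb signal, a sign of RNA integrity, was 0.567, 0.691 and 0.544 in CTLA-4 KO and 0.418, 0.41 and 0.584 in wild type.

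Il7r, the ligand-binding chain of the interleukin-7 receptor, fell in CTLA-4 KO cells, to about 48% of its wild type signal at the brighter of 2 probe sets. That probe set (1448575_at) had 1520, 1352 and 1424 in CTLA-4 KO arrays 1, 2 and 3, against 2179, 2725 and 4055 in the wild type arrays. The CTLA-4 KO arrays lay close together and below every wild type array, while the wild type arrays were spread out, with replicate 3 the highest. The CTLA-4 KO mean was 1432 ± 84.6 and the wild type mean 2986 ± 965 (SD, n = 3 arrays each), a log2 difference of −1.01 with an SE of 0.19 (limma adjusted p = 0.0352; the blocked fit gave 0.00153). The second probe set (1448576_at) had 312, 221 and 291 in CTLA-4 KO, against 508, 386 and 985 in wild type. Again the genotypes did not overlap and wild type replicate 3 stood highest. Its log2 difference was of like size, −1.05 ± 0.29, but it was changed in the blocked fit only (limma adjusted p = 0.115, and 0.00498 with the block). Over the 6 arrays the log2 values of the 2 probe sets correlated at 0.923, as 2 readings of the same RNA.

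Within the replicate pairs, Il7r was lower in CTLA-4 KO in 3 of 3, with log2 differences of −0.51, −1.0 and −1.5 for pairs 1, 2 and 3 at the brighter probe set and of −0.67, −0.76 and −1.70 at the other. Wild type replicate 3, which had the highest Il7r, also had the highest summed B cell (302) and dendritic cell (271) markers and the highest Gapdh 5' to 3' ratio (0.25) of all arrays. The part of these in the Il7r difference was not tested. Without that array the difference was −0.76 ± 0.13. The call at the brighter probe set was kept without wild type replicate 1 (limma adjusted p = 0.0159). Leaving out any single CTLA-4 KO array ended it (0.0585 for replicate 1, 0.158 for 2 and 0.0973 for 3), as did leaving out wild type replicate 2 (0.0814) or 3 (0.0558). It was also lost with no dimness filter (0.094), without the intensity trend (0.165) and with the Actb ratio as a term (0.098), where the difference was −1.34 ± 0.22. As the cells were measured in bulk, fewer cells with the transcript and less transcript per cell cannot be told apart, here or for the genes below.

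**Figure D1:**
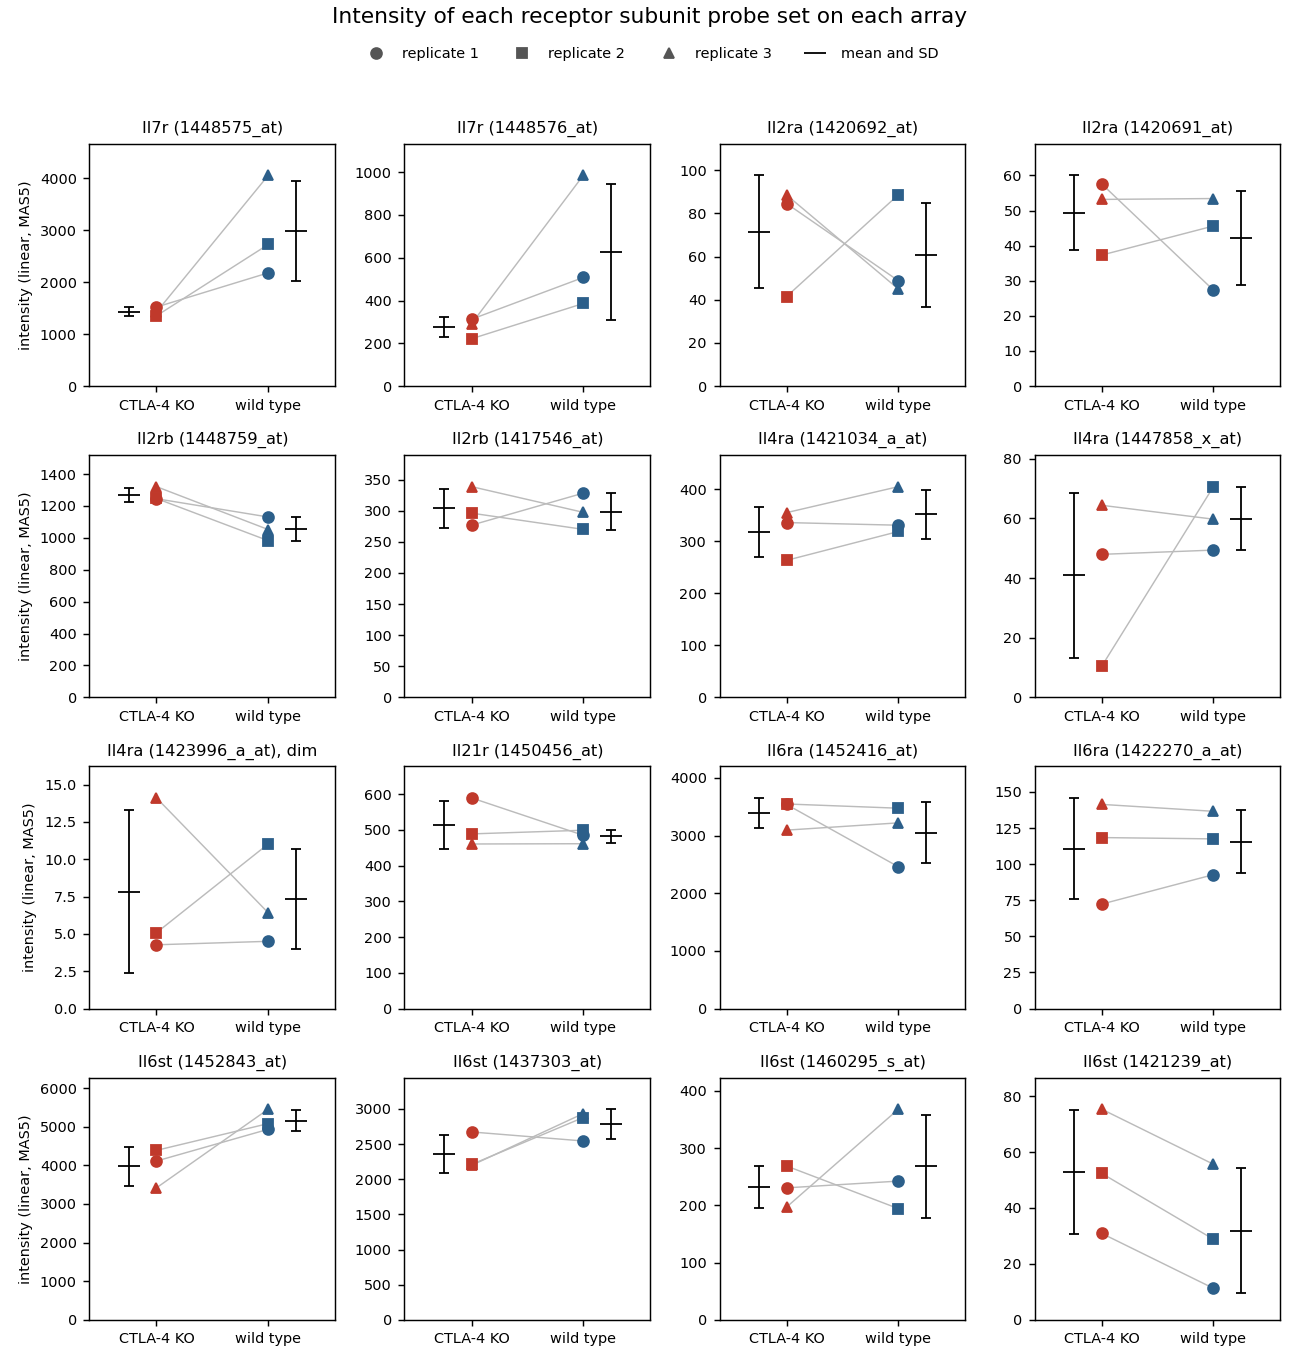
Intensity of each of the 16 receptor subunit probe sets (y axis, linear, from 0, with its own scale in each panel) in CTLA-4 KO (left, red) and wild type (right, blue) arrays, with replicate numbers by marker shape and joined by grey lines, and the mean and SD of 3 arrays as black bars. Both Il7r panels show close CTLA-4 KO points below spread wild type points, and most other panels show overlapping groups.

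Neither measured chain of the interleukin-2 receptor was changed. Il2rb, the beta chain that the receptors for interleukins 2 and 15 share, had 1245, 1247 and 1321 in CTLA-4 KO arrays at its brighter probe set (1448759_at), against 1130, 982 and 1052 in wild type arrays. Every CTLA-4 KO array lay above every wild type array, yet the difference was small, 0.27 ± 0.11 with a 95% interval of 0.02 to 0.52, and did not pass the threshold (limma adjusted p = 0.287, and 0.124 with the block). The other Il2rb probe set (1417546_at) had 277, 296 and 339 in CTLA-4 KO and 328, 270 and 297 in wild type, with overlapping groups and a difference of 0.02 (95% interval −0.33 to 0.38). Il2ra, the alpha chain that gives the receptor its high affinity, was dim on all 6 arrays. Its probe set 1420692_at had 84.6, 41.5 and 88.5 in CTLA-4 KO and 48.8, 88.6 and 44.9 in wild type, and probe set 1420691_at had 57.6, 37.3 and 53.2 and 27.3, 45.6 and 53.4. The groups overlapped at both probe sets, the differences were 0.18 each, and the 95% intervals, −0.52 to 0.89 and −0.45 to 0.82, leave room for a change of nearly 1 log2 unit upward.

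Il21r and Il4ra overlapped between the genotypes. Il21r, the private chain of the interleukin-21 receptor, had 590, 489 and 461 in CTLA-4 KO arrays and 485, 499 and 462 in wild type arrays. CTLA-4 KO replicate 1 was the highest of the 6 and the other 5 lay close together, with a difference of 0.08 (95% interval −0.24 to 0.40, limma adjusted p = 0.832). Il4ra, the chain that binds interleukin-4, had 336, 264 and 355 in CTLA-4 KO and 331, 319 and 406 in wild type at its brightest probe set (1421034_a_at), a difference of −0.14 (95% interval −0.52 to 0.24, limma adjusted p = 0.743). A second Il4ra probe set (1447858_x_at) was dim, with 48, 10.4 and 64.4 in CTLA-4 KO and 49.4, 70.7 and 59.7 in wild type, with CTLA-4 KO replicate 2 far below the rest, and its difference of −0.55 was not past the threshold (limma adjusted p = 0.545). It was −0.073 without that array and −0.88 without CTLA-4 KO replicate 3. The third (1423996_a_at) lay between 4.27 and 14.1 on all arrays, below the floor, and was not tested.

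Of the interleukin-6 receptor, the signalling chain fell at 1 of its 4 probe sets in the blocked fit only, and the binding chain was changed in neither fit. Il6st, which encodes gp130, had 4111, 4388 and 3417 in CTLA-4 KO arrays at its brightest probe set (1452843_at), against 4933, 5081 and 5454 in wild type arrays. The groups did not overlap, and the pair differences were −0.26, −0.21 and −0.67, the largest again in pair 3. The difference of −0.38 ± 0.11 (95% interval −0.63 to −0.14) was not past the threshold without the block (limma adjusted p = 0.127) and was with it (0.0364). The next probe set (1437303_at) had 2672, 2209 and 2196 in CTLA-4 KO and 2543, 2877 and 2934 in wild type, where CTLA-4 KO replicate 1 lay above wild type replicate 1, and its difference was −0.24 (limma adjusted p = 0.349, and 0.195 with the block). Probe set 1460295_s_at had 231, 269 and 197 in CTLA-4 KO and 242, 194 and 368 in wild type (−0.16, limma adjusted p = 0.785). The dimmest (1421239_at) had 30.9, 52.4 and 75.3 in CTLA-4 KO and 11.3, 28.8 and 55.6 in wild type, and its difference of 0.58 ran the other way, with an interval of −0.29 to 1.45. It was 0.23 without wild type replicate 1, 0.93 without wild type replicate 3 and 0.086 with the Actb ratio as a term. The 4 differences of Il6st thus had 3 negative signs and 1 positive sign, at the dimmest probe set.

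Il6ra, the chain that binds interleukin-6, had 3540, 3549 and 3095 in CTLA-4 KO arrays and 2460, 3475 and 3221 in wild type arrays at its brighter probe set (1452416_at). The groups overlapped, wild type replicate 1 was the lowest, and the difference was 0.17 (95% interval −0.13 to 0.46, limma adjusted p = 0.602), or 0.018 without wild type replicate 1. The other Il6ra probe set (1422270_a_at) had 72.3, 118 and 141 in CTLA-4 KO and 92.7, 117 and 137 in wild type, with a difference of −0.08 (limma adjusted p = 0.913). The sheddases that cut Il6ra from the cell surface, Adam10 and Adam17, had 9216 ± 1002 and 2592 ± 69.1 in CTLA-4 KO and 10346 ± 801 and 2279 ± 114 in wild type (SD, n = 3 arrays), and neither was past the threshold (limma adjusted p = 0.476 and 0.394).

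Of the 15 receptor probe sets above the floor, 1 was changed, the brighter one of Il7r, where 1.25% of all 27022 tested probe sets were changed and 0.47% were lower. With the replicate block 3 were changed, all lower, the 2 of Il7r and the brightest of Il6st, where 8.66% of all tested probe sets were changed and 4.8% were lower. Values of the genotypes did not overlap at 4 of the 15, against 21% of all tested probe sets, or 11.5% for those lower in CTLA-4 KO. These 4 were both Il7r probe sets and the brightest of Il6st, below wild type, and the brighter of Il2rb, above it. By gene, the median difference of the 7 was 0.08, beside 0.0018 over all 11990 tested genes, with 4 positive and 3 negative.

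**Figure D2:**
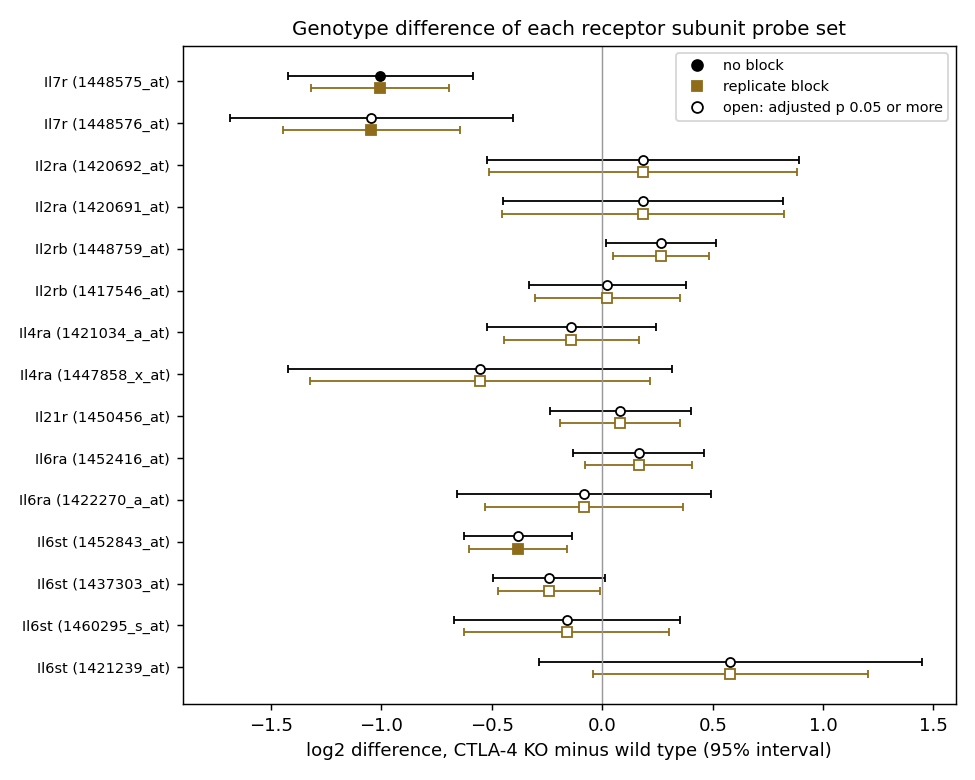
Log2 difference, CTLA-4 KO minus wild type, of the 15 tested receptor probe sets with 95% intervals, from the fit without a block (black circles) and with the replicate block (brown squares), filled where the adjusted p was under 0.05. The Il7r intervals lie below 0 at both probe sets, from −1.42 to −0.59 at the brighter one, and those of Il2ra, Il4ra, Il21r and Il6ra span 0.

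**Figure D3:**
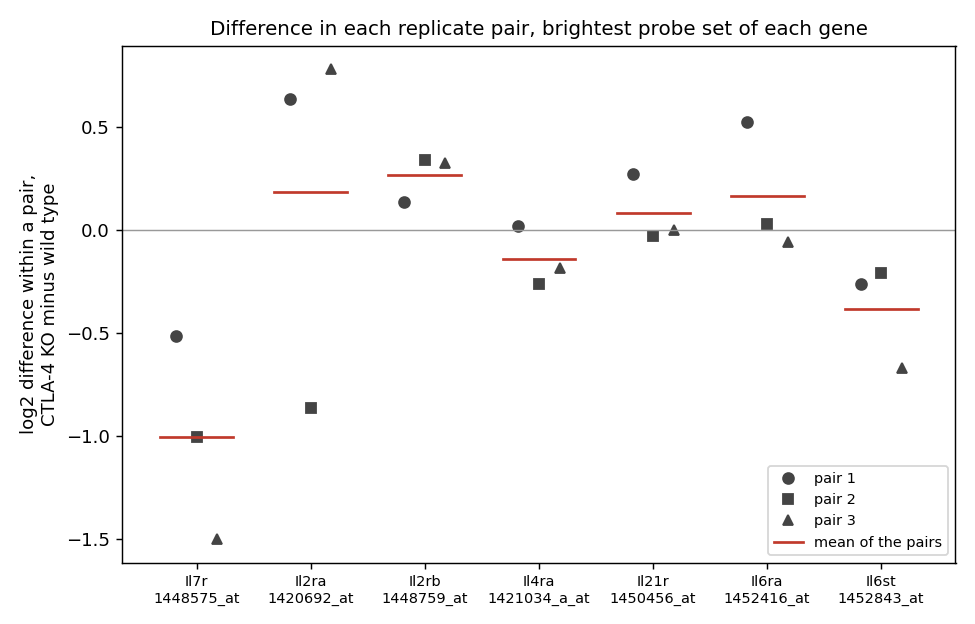
Log2 difference between the CTLA-4 KO and the wild type array of each replicate pair (y axis) for the brightest probe set of each receptor gene (x axis), with the mean of the 3 pairs as a red bar. Il7r and Il6st lie below 0 and Il2rb above 0 in all 3 pairs, and Il2ra has pairs at 0.63, −0.86 and 0.78.

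Of 12 genes for other receptor chains of these families, 2 had no probe set in the annotation used here and 6 (Il9r, Il13ra1, Lifr, Osmr, Cntfr and Il12rb2) were below the floor. Of the 4 tested, none was changed, where 1.69% of all tested genes were. Il12rb1, a chain of the receptors for interleukins 12 and 23, had 567, 563 and 471 in CTLA-4 KO arrays and 320, 377 and 260 in wild type arrays. All CTLA-4 KO arrays lay above all wild type arrays, with a difference of 0.73 ± 0.17 that was past the threshold with the replicate block only (limma adjusted p = 0.0709, and 0.00588 with it). Il27ra, which joins gp130 to bind interleukin-27, had 3495, 3455 and 3554 in CTLA-4 KO and 4276, 4311 and 4188 in wild type. The replicates of each genotype lay close together and the groups did not overlap, but the difference of −0.28 ± 0.09 was not past the threshold in either fit (limma adjusted p = 0.151 and 0.0596). Crlf2, which pairs with Il7r in the receptor for TSLP, had 5852 ± 163 in CTLA-4 KO and 5524 ± 820 in wild type (SD, n = 3 arrays), and Il15ra, the alpha chain for interleukin-15, had 191 ± 7.44 and 222 ± 20.6, with limma adjusted p = 0.737 and 0.61.

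Of 16 ligand genes 8 were tested, and 1 of them, Il21, was higher and none lower, where 1.19% of all tested genes were higher and 0.5% lower. The median difference of the 8 was −0.05. Il21, made by helper T cells and acting on B cells and on T cells themselves, had 3760, 3909 and 3933 in CTLA-4 KO arrays and 2657, 2053 and 1959 in wild type arrays (0.81 ± 0.12, limma adjusted p = 0.0154), beside the Il21r difference of 0.08. Il2, the T cell growth factor, had 239, 231 and 188 in CTLA-4 KO and 430, 291 and 319 in wild type, without overlap. Its difference of −0.61 ± 0.19 was past the threshold with the block only (limma adjusted p = 0.151, then 0.0319). The same held for Clcf1, a gp130 ligand, at its brightest probe set. This had 225, 228 and 363 in CTLA-4 KO and 445, 458 and 605 in wild type (−0.87 ± 0.21, limma adjusted p = 0.0763, and 0.00247 with the block). Other Clcf1 probe sets, 1437271_at and 1450262_at, had −0.45 and −0.48, with overlapping groups. They were past the threshold in neither fit (limma adjusted p = 0.171 and 0.262 with the block). Il4 had 160 ± 45 in CTLA-4 KO and 92.1 ± 32.9 in wild type (limma adjusted p = 0.248), and Il7, Il15 and Il6, which other cells chiefly make, were below the floor.

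None of the 9 tested JAK and STAT genes was changed in either fit, where 1.69% of all tested genes were changed without the block and 8.92% with it. At the brightest probe set of each gene the differences lay between −0.22 and 0.24. Jak1, which binds the private chains and gp130, had 6868 ± 281 in CTLA-4 KO and 8060 ± 1141 in wild type (limma adjusted p = 0.356). Jak3, the kinase on the common gamma chain, had 971 ± 101 and 968 ± 163 (0.979), and Stat3, the main STAT of gp130 and of interleukin-21, had 2929 ± 330 and 2841 ± 203 (0.9). Stat5b, a STAT of interleukins 2 and 7, had 2263 ± 163 and 2009 ± 51.7 (0.473), and Stat4, of interleukin-12, had 5168 ± 454 and 4387 ± 633 (0.365), each as CTLA-4 KO and wild type means with SD of 3 arrays.

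Of 11 feedback inhibitors none was changed at its brightest probe set and 3 were with the block, where 1.69% and 8.92% of all tested genes were. Socs3, the SOCS protein that binds gp130, had 1399, 1078 and 1482 in CTLA-4 KO arrays at that probe set (1455899_x_at), against 505, 846 and 1202 in wild type arrays, and wild type replicate 3 overlapped the CTLA-4 KO arrays. At a second, 1456212_x_at, it had 1009, 913 and 1298 in CTLA-4 KO and 427, 520 and 679 in wild type, without overlap. The differences were 0.69 ± 0.26 (limma adjusted p = 0.231, and 0.0319 with the block) and 0.97 ± 0.19 (0.0381, and 0.000509 with the block), and the third probe set also had a positive difference, 0.41. With the block, Socs5 (−0.46, limma adjusted p = 0.0213) and the phosphatase gene Ptpn11 (−0.39, 0.0135) fell at their brightest probe sets. The other tested Socs5 probe set had −0.10 (limma adjusted p = 0.817 with the block). For Ptpn11, 1427699_a_at had −0.37 and 1421196_at had 0.07 (limma adjusted p = 0.277 and 0.907 with the block). Cish, a target and inhibitor of STAT5 signals, had 750 ± 120 in CTLA-4 KO and 718 ± 137 in wild type (limma adjusted p = 0.891 without the block).

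Of 12 genes known as targets of these STATs 11 were tested, and 2, Pim1 and Batf, were higher and none lower at the brightest probe set, beside 1.19% higher and 0.5% lower over all tested genes. The median difference was 0.36. Averaging the probe sets of each gene gave 2 higher and 1 lower, beside 269 higher and 119 lower of all 11990 tested genes. Pim1, a survival kinase induced by many cytokines, had 997, 1090 and 1215 in CTLA-4 KO arrays and 457, 582 and 447 in wild type arrays (1.13 ± 0.15, limma adjusted p = 0.00906). Batf, an AP-1 factor, had 1941, 2060 and 2099 in CTLA-4 KO and 1195, 1194 and 1502 in wild type (0.65 ± 0.12, 0.0347). With the replicate block 6 were higher and 2 lower, where 5.48% of all tested genes were higher and 3.44% lower. Bcl6, Prdm1, Myc and Bcl2l1 joined the higher ones, and Bcl2 and Ccnd2 were the lower ones. A second tested probe set of Pim1 had 0.71 (limma adjusted p = 0.169, and 0.0872 with the block). That of Bcl6 had 0.43 (limma adjusted p = 0.438, and 0.229 with the block). The second tested probe set of Bcl2l1 ran the other way, at −0.36 (limma adjusted p = 0.768, and 0.573 with the block). Bcl2, a survival gene downstream of the interleukin-7 receptor, had 2858, 1608 and 1620 in CTLA-4 KO at its brightest probe set and 3779, 2355 and 2927 in wild type, with overlap between the groups. All 5 of its tested probe sets had negative differences, −0.73 to −0.25, and 3 were changed with the block and none without it. Of all tested probe sets, 8.66% were changed with the block and 4.8% were lower. Ccnd2, a D-type cyclin, had 6782, 5771 and 4235 in CTLA-4 KO and 8435, 8240 and 7463 in wild type at its brightest probe set (−0.55, limma adjusted p = 0.113, and 0.00652 with the block). All 7 Ccnd2 probe sets had negative differences, −0.87 to −0.50, and 4 of them were changed without the block. Without it 1.25% of all tested probe sets were changed and 0.47% were lower. Probe sets of 1 gene are readings of the same RNA.

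**Figure D4:**
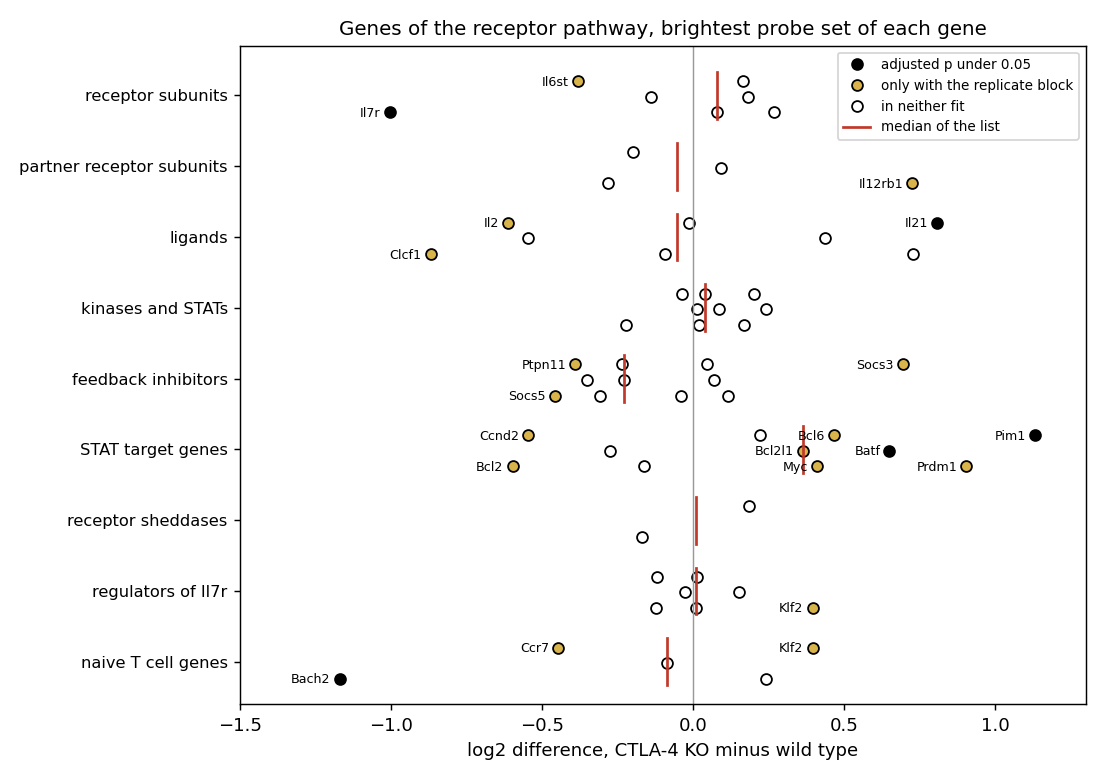
Log2 difference, CTLA-4 KO minus wild type (x axis), of each tested gene at its brightest probe set, by list, with filled black points for an adjusted p under 0.05, yellow points for genes past it with the replicate block only, and the list median as a red bar. The JAK and STAT genes sit between −0.22 and 0.24 with no filled point, and Il7r and Bach2 lie farthest left.

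A list of 7 transcription factor genes was chosen for links to Il7r control, and all were tested. None was changed without the block and 1, Klf2, was with it, where 1.69% and 8.92% of all tested genes were changed. Foxo1, which activates Il7r in naive T cells, had 5437 ± 75.2 in CTLA-4 KO and 5434 ± 759 in wild type (SD, n = 3 arrays). Gfi1, a repressor of Il7r, had 1003 ± 93.6 and 1100 ± 198, and the ETS family factor Gabpa had 3241 ± 470 and 3199 ± 310, with limma adjusted p from 0.753 to 0.976 for these 3. Runx1, which takes part in Il7r regulation, was past the threshold in neither fit at its brightest probe set (−0.12). At 1 of its other 5, 1440878_at, it had 839, 723 and 796 in CTLA-4 KO arrays and 956, 1124 and 1091 in wild type arrays, without overlap, and fell in the blocked fit only (−0.42, limma adjusted p = 0.138, and 0.0395 with the block). Ets1 was also in the list. Its brightest probe set had 12718, 12925 and 14951 in CTLA-4 KO arrays, against 11398, 12597 and 12474 in wild type. The groups did not overlap. The difference of 0.15 was past the threshold in neither fit (limma adjusted p = 0.467, and 0.323 with the block). All 4 tested Ets1 probe sets had positive differences, 0.03 to 0.27, and none was changed in either fit. Klf2, a FOXO1 target that like Il7r marks resting T cells, had 4537, 5091 and 4001 in CTLA-4 KO arrays and 2740, 4433 and 3327 in wild type arrays. The groups overlapped, and it rose in the blocked fit only (0.40, limma adjusted p = 0.272, and 0.0379 with the block), opposite in sign to Il7r. Of 7 naive T cell genes, 2 had no probe set in the annotation used here. Of the 5 tested, Klf2 among them, 1 was lower and none higher, where 0.5% of all tested genes were lower. This was Bach2, a repressor of effector differentiation, with 1579, 1287 and 1171 in CTLA-4 KO and 3791, 2907 and 2512 in wild type (−1.17 ± 0.16, limma adjusted p = 0.0112). Ccr7, a lymph node homing receptor, was lower with the block only (−0.45, limma adjusted p = 0.169, and 0.0186 with it), and Lef1 and S1pr1 were past the threshold in neither fit.

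The genes whose log2 values followed Il7r most closely over the 6 arrays, among 8031 named genes with a mean intensity of at least 200, were Nrip1 (Pearson's r = 0.997), Gt(ROSA)26Sor (0.995) and Tada1 (0.988). Nrip1, a nuclear receptor co-repressor, had 4260, 4199 and 4175 in CTLA-4 KO arrays and 4886, 5422 and 6229 in wild type arrays, with the same order of the wild type arrays as Il7r. The differences of these genes were smaller, −0.38, −0.23 and −0.14, and none was past the threshold without the block (limma adjusted p = 0.113, 0.328 and 0.525). With the block Nrip1 was (0.0262). For Il6st the closest were Tmem170 (0.998), Ccsap (0.995) and Chst14 (0.99), with differences of −0.21, −0.37 and −0.27. The 6 points share their arrays and scaling, and the genes named are the highest of all those searched.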

How the data were processed

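The authors deposited 1 table of linear intensity values for 45101 probe sets and 6 arrays. Partek and MAS5 are named without versions, per the submitters' processing notes, and background correction and probe summary were done before deposit. MAS5 leaves faint signals noisy, so floor and pseudocount can move dim values. RNA was 2 µg per array, per the labels' protocols. The number of arrays limits the precision.

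Groups came from sample titles, 3 arrays each. The titles call the arrays biological replicates, but whether replicates are separate animals is not stated. The p-values thus measure the spread between these samples, which may differ from that between animals. Deviations from group means correlated at 0.371, 0.24 and 0.254 for same-numbered arrays, all above the 0.1 required here, and replicate numbers, which stand in the titles, were treated as pairs on that ground.

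After log2(intensity + 16), 64 controls and probe sets with a mean log2 value under the 40th percentile were left out. All kept probe sets were fitted in limma 3.58.1 (R 4.3.3) without a block, using lmFit and then eBayes with a trend on intensity, and the code was tested on simulated data. Blocked values are given for named genes where a call changes, or as a count. The annotation gave 1 gene for 34958 probe sets, several for 932 and none for 9211. RefSeq held 34754 of these by gene ID, and its symbol was then used. The brightest probe set stood for a gene in list counts. The array table names no genome build, and the only coordinates given are those of the RefSeq promoter windows. Members, lists, motifs and tests were chosen with earlier results of these data known. Named genes were Ctla4, all member probe sets, changed list genes or those with the smallest p, and the 3 genes most like each changed member. Other genes of the lists, and probe sets other than the brightest, were named after their values were seen.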

Additional observations from a re-analysis of the deposited data

How the results depend on the processing

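The 339 changed probe sets of the whole table became 111 with no dimness filter, 20 without the trend, 2341 with the replicate block and 22 with a term for the Actb ratio, and 62 to 217 when 1 array was left out. The 1 changed receptor probe set became 3 with the block and 0 with no filter, without the trend or with the Actb ratio, and 0 to 1 when 1 array was left out. The Il7r probe sets had negative differences under all 15 alternatives, −1.34 to −0.76 and −1.5 to −0.67, and were past the threshold under 7 and 1 of them. The brightest Il6st probe set had −0.53 to −0.28 and passed under 1. The Ctla4 call held under all 15. With the block, 8.92% of all tested genes were changed, against 1.69% without it. By list these were 1 of 4 partner receptors, 3 of 8 ligands, 3 of 11 inhibitors and 8 of 11 STAT targets. They were also 1 of 7 in the list chosen for links to Il7r control and 3 of 5 naive genes, with Klf2 in both. Averaging the probe sets of each gene gave 1 changed partner receptor, and 3 changed STAT targets in place of 2. Over all 11990 tested genes it gave 269 higher and 119 lower. Differences past no threshold moved with single arrays, as for Il2ra (1420692_at), 0.030 to 0.46.

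Signs turned at 5 probe sets that were past the threshold in neither fit. With 1 array left out, Il2ra (1420691_at) ranged over −0.014 to 0.33, Il2rb (1417546_at) over −0.053 to 0.091 (−0.043 without wild type replicate 2), Il21r over −0.021 to 0.15 and Il6st (1460295_s_at) over −0.35 to 0.080. Il6ra (1422270_a_at) had 0.0054 after quantile normalization, 0.0072 under median centring and −0.26 to 0.16 with 1 array left out (0.032 without wild type replicate 3). The cause was not tested.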
